A study of Homo sapiens with 42 samples.

Results

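The 8 protein-coding genes PDPN, CNTN4, UBL4B, CLGN, SPTB, SCN4A, SLC12A8 and CTXN1 were taken by symbol from the 58868 genes used of a read count table, and each symbol matched 1 gene. They were chosen because their RNA was at or near 0 in at least 1 drug-treated group of the acute myeloid leukaemia line OCI-AML3. Their values in treated OCI-AML3 cells against DMSO are therefore given as a description, with no p-value and no call. A gene was placed among those lost with menin inhibition where its mean level with VTP-50469 alone at day 6 was under 25% of DMSO day 6. It was placed among those lost with selumetinib only where that did not hold and selumetinib alone or the combination was under 25% of DMSO. By this rule 7 genes were lost with menin inhibition and 1, CTXN1, was placed in the class named lost with selumetinib only. CTXN1 met the rule through the combination, which also holds VTP-50469, since selumetinib alone did not bring it under 25% of DMSO. Just inside the limit were SPTB at 20.1% and SLC12A8 at 18.5% of DMSO with VTP-50469 at day 6, and outside it was CTXN1 at 200%. A limit of 50% gave the same 7 and 1 genes, while VTP-50469 at day 3 in place of day 6 left 1 gene, PDPN, in the menin class.

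Polyadenylated RNA was sequenced from OCI-AML3, labelled NPM1c+ (a leukaemia with mutant, cytoplasmic nucleophosmin), and from NOMO1, an acute myeloid leukaemia line labelled KMT2A-r (rearranged KMT2A). The 42 libraries fall into 7 groups per line, with 3 in each: VTP-50469, a menin inhibitor, at 100 nM for day 3 and for day 6, the MEK inhibitor selumetinib (100 nM), VTP-50469 plus selumetinib (the combination) at day 3 and at day 6, and DMSO, the vehicle, at day 3 and at day 6. The name of the menin compound appears in the labels both as VTP-50469 and as VTP-50649. Selumetinib exposure is 1 day in the protocol and in the names of the count columns used. In both lines, however, the titles of replicates 2 and 3 say day 3. For OCI-AML3, 3 further columns named for day 6, which match no sample, repeat the selumetinib counts in all 58870 rows. The time of selumetinib exposure is therefore uncertain, as is its duration within the combination. Selumetinib alone was set against DMSO day 3. Each line is 1 cell line, and nothing in the labels tells whether replicate libraries were separate cultures, so errors and p-values measure the spread between these libraries, which may be technical.

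Levels are in CPM, the reads of a gene scaled to the same library total in every sample. OCI-AML3 libraries held 15561248 to 24262960 counts, and NOMO1 libraries held 15264862 to 29168628. All 7 myeloid markers were detected in every group of both lines. MPO was low in OCI-AML3, at group means of 0.612 to 2.45 CPM, against 3340 to 12900 CPM in NOMO1. In OCI-AML3 the VTP-50469 day 3 replicate 2 lay apart from its partners. Its root mean square log2 differences were 0.886 and 0.875, against 0.735 between the partners. Such differences were larger within the OCI-AML3 combination, at 1.032 to 1.17 at day 3 and 1.591 to 1.677 at day 6. Within NOMO1 DMSO day 3 they were 1.222 to 1.304. Genes with reads numbered 16742 to 17438 in OCI-AML3 combination day 6 libraries, against 20208 to 20482 in DMSO day 6. Whether this bears on the absence of reads in single genes was not tested. Among the selumetinib libraries of both lines replicate 1 is the one without day 3 in its title. Mitochondrial transcripts took 12.26 ± 2.26% of counts in OCI-AML3 combination day 6, against 3.24 ± 0.66% in DMSO day 6 (SD, n = 3 each), and in NOMO1 they took 17.76 ± 0.2% in DMSO day 3 but 3.17 ± 0.48% in DMSO day 6. Comparisons on the same DMSO libraries share their error and are not independent. Intervals, floors and fold bounds below cover counting error only. In bulk RNA, fewer cells expressing a gene and less RNA per cell cannot be told apart.

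Menin is a scaffold protein that holds the histone methyltransferase KMT2A at its target genes. In leukaemias with rearranged KMT2A or mutant NPM1 this keeps HOX and MEIS1 transcription high, and menin inhibitors such as VTP-50469 break the contact. Selumetinib blocks MEK, the kinase that activates ERK, whose targets include transcription factors of the ETS and AP-1 families. The 8 genes are best known from other tissues: podoplanin (PDPN) from lymphatic endothelium, contactin 4 (CNTN4) and cortexin 1 (CTXN1) from neurons, UBL4B and calmegin (CLGN) from the testis, erythroid beta-spectrin (SPTB) from red cells, and the sodium channel gene SCN4A from skeletal muscle. SLC12A8 belongs to the cation-chloride cotransporter family by sequence.

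The start regions of 4 genes are shown because these genes differ most in which drug lowered them: PDPN (VTP-50469 and not selumetinib), CTXN1 (selumetinib and not VTP-50469 alone), and UBL4B and SPTB (both). Each is the 250 bases before a RefSeq transcript start (GRCh38.p14), written 5′ to 3′ on the gene's strand, with capitals for any match, on either strand, to the AP-1 letters TGANTCA, the ETS letters CCGGAA, the MEIS letters TGACAG or the TATA-box letters TATAAA. None of these matches overlapped another.
PDPN, chr1:13583507-13583756, plus strand, the first of 3 starts listed: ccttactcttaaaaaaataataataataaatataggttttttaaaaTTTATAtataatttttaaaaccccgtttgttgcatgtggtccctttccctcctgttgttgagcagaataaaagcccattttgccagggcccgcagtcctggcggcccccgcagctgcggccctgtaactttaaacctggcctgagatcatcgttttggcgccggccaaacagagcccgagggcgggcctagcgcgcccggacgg
UBL4B, chr1:110112193-110112442, plus strand: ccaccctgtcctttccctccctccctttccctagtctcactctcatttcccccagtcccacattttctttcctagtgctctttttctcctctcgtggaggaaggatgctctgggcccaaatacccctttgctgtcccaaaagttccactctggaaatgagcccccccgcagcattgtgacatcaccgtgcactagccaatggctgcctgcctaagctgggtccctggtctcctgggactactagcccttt
SPTB, chr14:64879908-64880157, minus strand, the first of 2 starts listed: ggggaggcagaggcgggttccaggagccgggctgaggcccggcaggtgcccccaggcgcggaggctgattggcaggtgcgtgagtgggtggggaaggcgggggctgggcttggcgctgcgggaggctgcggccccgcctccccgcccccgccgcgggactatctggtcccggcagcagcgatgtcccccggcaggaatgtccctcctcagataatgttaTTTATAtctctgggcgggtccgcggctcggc
CTXN1, chr19:7926136-7926385, minus strand: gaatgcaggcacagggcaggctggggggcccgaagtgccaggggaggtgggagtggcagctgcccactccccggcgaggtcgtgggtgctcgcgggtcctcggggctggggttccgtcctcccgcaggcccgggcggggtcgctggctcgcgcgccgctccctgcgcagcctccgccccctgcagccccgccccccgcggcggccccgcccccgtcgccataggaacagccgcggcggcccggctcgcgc
In these windows only the TATA letters matched, on the reverse strand, beginning at base -204 of the PDPN window and at base -31 of the SPTB window, counted from the transcript start. The UBL4B and CTXN1 windows held none of the 4 motifs. RefSeq listed 11 such windows for 7 of the 8 genes (none was matched for SCN4A). Of these 11, 0 held AP-1, 0 held ETS, 1 held MEIS (the third PDPN start), 4 held TATA, and 8 held an E-box (CANNTG, not capitalised). By gene, 1 of the 7 held MEIS, 3 held TATA and 6 held an E-box. The first 2 PDPN windows overlap and share their E-box sites, so the 11 windows are not independent. Of 35116 windows of the same length in the RefSeq table, 6.57% held AP-1, 14.5% ETS, 13.0% MEIS, 10.7% TATA and 61.8% an E-box. Base composition differed widely among the 4 windows: 48.8% G or C in PDPN with 14 CpG, 55.2% in UBL4B with 3, 72.0% in SPTB with 22 and 80.0% in CTXN1 with 31, where the median window had 58.0% and 11 CpG.

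Across OCI-AML3, 1 of the 8 genes was under 25% of DMSO with VTP-50469 at day 3, 7 with VTP-50469 at day 6, 4 with selumetinib, and all 8 with the combination at day 3 and at day 6. The 8 at day 6 include CTXN1 at 24.7%, which was at 30.1% without combination replicate 1 and at 26.4% without replicate 3. Among genes with at least 1 CPM in DMSO, 0.158%, 1.04%, 0.616%, 2.63% and 2.88% were under 25% in those 5 comparisons. All treated libraries lay below all DMSO libraries of their comparison for 4 of the 8 with VTP-50469 at day 3 (15.4% of 16384 genes that passed the filter on low counts), 7 at day 6 (25%), 7 with selumetinib (25%), 8 with the combination at day 3 (29.7%) and 8 at day 6 (28.8%). They lay above for CTXN1 with VTP-50469 at day 6 (27.0% of those genes) and for PDPN with selumetinib (23.1%). The genes were selected on these contrasts, so the counts restate the selection. Per kilobase of exon, DMSO day 3 levels ran from 20.1 CPM per kb in UBL4B and 7.61 in CLGN through 3.91 in CTXN1, 2.80 in PDPN, 1.31 in CNTN4, 1.27 in SLC12A8 and 0.931 in SCN4A to 0.567 in SPTB. The neighbours in that order CNTN4 and SLC12A8 differed by less than their SDs of 0.207 and 0.218.

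**Figure D1:**
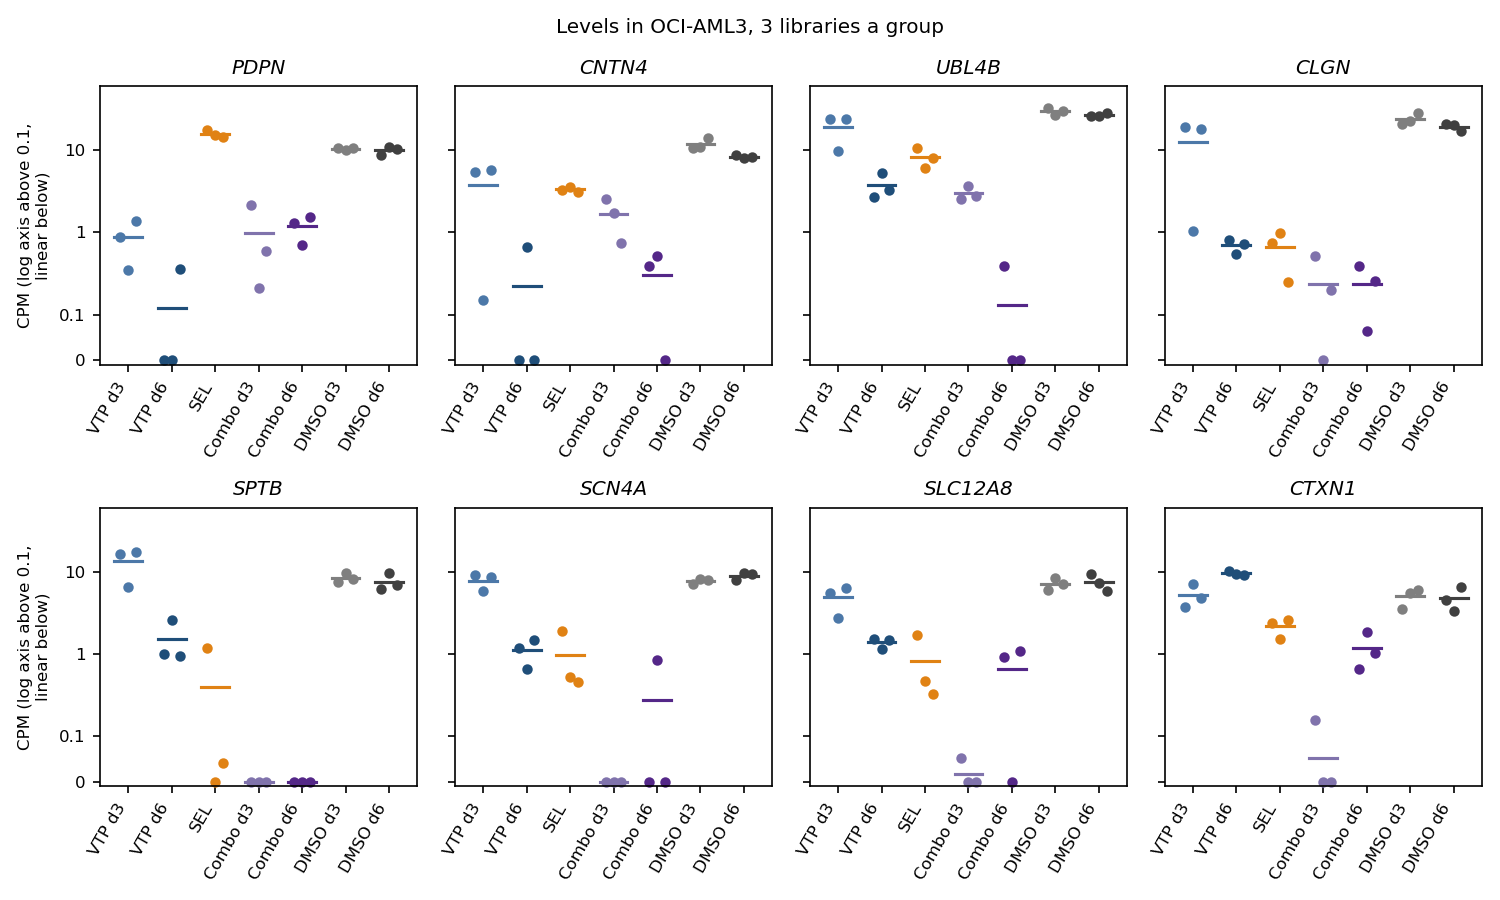
Level of each gene in CPM (vertical axis, logarithmic above 0.1 and linear below) in the 7 OCI-AML3 groups, with 1 point per library and a bar at the group mean. SPTB lay at 0 CPM in all 6 combination libraries, and PDPN alone had all 3 selumetinib libraries above all 6 DMSO libraries.

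PDPN, whose product podoplanin is a mucin-type membrane glycoprotein that binds the platelet receptor CLEC1B, lies on chr1:13583465-13617957, plus strand (GRCh38, GENCODE 29, as for all gene positions here). PDPN had 0.876, 0.351 and 1.38 CPM in VTP-50469 day 3 libraries, against 10.5, 10.1 and 10.6 CPM in DMSO day 3 libraries. It had 0, 0 and 0.36 CPM in VTP-50469 day 6 libraries, against 8.61, 10.8 and 10.4 CPM in DMSO day 6 libraries. At both days every VTP-50469 library lay below every DMSO library. The log2 fold changes were -3.57 ± 0.54 at day 3 and -6.08 ± 0.70 at day 6 (SE), which left 8.36% and 1.21% of DMSO. All 8 reads at day 6 came from replicate 3, so without it the group had none. PDPN was the only one of the 8 under 25% of DMSO with VTP-50469 at day 3 when all libraries were used, where 10.8% of DMSO was left without replicate 2.

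Selumetinib alone left PDPN high. It had 17.7, 15.1 and 14.5 CPM with selumetinib, all above the DMSO day 3 libraries given above, a level of 152% of DMSO (log2 fold change 0.60 ± 0.44). In the combination it had 2.17, 0.211 and 0.595 CPM at day 3, or 9.55% of DMSO, and 1.31, 0.707 and 1.52 CPM at day 6, or 11.8% of DMSO. Both sets lay below all DMSO libraries. The day 3 mean rests on replicate 1, without which 3.87% of DMSO was left. At day 6 all combination libraries lay above all VTP-50469 libraries, with a mean of 1.18 ± 0.42 CPM in the combination and 0.12 ± 0.208 CPM with VTP-50469 alone (SD, n = 3 each).

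CNTN4, which encodes contactin 4, a cell-adhesion protein of neurons tethered to the membrane by a lipid anchor, lies on chr3:2098813-3057956, plus strand. CNTN4 had 0, 0.662 and 0 CPM in VTP-50469 day 6 libraries, against 8.79, 7.89 and 8.17 CPM in DMSO day 6 libraries. All 11 reads of that treated group came from replicate 2, and the mean was 2.66% of DMSO (log2 fold change -5.31 ± 1.08). At day 3 it had 5.36, 0.15 and 5.72 CPM with VTP-50469, against 10.7, 11 and 14.1 CPM with DMSO. Replicate 2 was far below its partners here. The level left was 31.4% of DMSO with all libraries, 46.4% without replicate 2, 24.6% without replicate 1 and 23.1% without replicate 3, so CNTN4 was inside the 25% limit without either of the last. Selumetinib gave 3.27, 3.58 and 3.11 CPM, which was 27.9% of DMSO day 3 and just outside the 25% limit. In the combination it was at 2.53, 1.74 and 0.744 CPM at day 3, 14% of DMSO, and at 0.392, 0.514 and 0 CPM at day 6, 3.65% of DMSO. Without replicate 2 of the day 6 combination, 2.37% was left. Every treated library in these groups lay below every DMSO library of its day. The annotated antisense gene CNTN4-AS1 overlaps its exons, and it had 9 reads over all OCI-AML3 libraries.

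UBL4B, an intronless relative of UBL4A (a subunit of the BAG6 complex that escorts membrane proteins), lies on chr1:110112468-110113945, plus strand. UBL4B was below DMSO in every treated library, and least with both drugs at day 6. It had 23.5, 9.73 and 23.9 CPM in VTP-50469 day 3 libraries and 2.67, 5.23 and 3.29 CPM in VTP-50469 day 6 libraries, against 32, 26.9 and 30.1 CPM in DMSO day 3 and 26.2, 25.9 and 28.3 CPM in DMSO day 6. With selumetinib it had 10.6, 6.06 and 8.03 CPM. In the combination it had 2.53, 3.64 and 2.73 CPM at day 3 and 0.392, 0 and 0 CPM at day 6. The levels left were 64.3% with VTP-50469 at day 3, 13.9% at day 6, 27.7% with selumetinib and 0.488% in the combination at day 6. In the combination at day 3 the log2 fold change was -3.32 ± 0.35. Treated and DMSO libraries did not overlap in any of the 5 comparisons. The last fall was 209-fold, with 6 reads, all in replicate 1, against 1410 in DMSO day 6. Without replicate 1 selumetinib left 23.7%, inside the 25% limit.

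CLGN encodes calmegin, an endoplasmic reticulum chaperone related to calnexin that mouse sperm need for fertility, and lies on chr4:140388455-140427968, minus strand. CLGN was nearly lost with either drug alone. It had 0.814, 0.542 and 0.721 CPM in VTP-50469 day 6 libraries, against 20.5, 19.9 and 17.1 CPM in DMSO day 6 libraries, which was 3.62% of DMSO. It had 0.739, 0.981 and 0.246 CPM with selumetinib, against 21, 22.6 and 27.8 CPM in DMSO day 3, which was 2.75%. The log2 fold changes were -4.77 ± 0.81 and -5.24 ± 0.82, at ranks 21 and 9 among the falls of 16384 genes. At day 3 VTP-50469 replicates 1 and 3 stayed just below the DMSO range with 19.2 and 17.8 CPM, while replicate 2 had 1.05 CPM. Without replicate 2, 77.7% of DMSO was left, against 53.2% with it. The combination had 0.517, 0 and 0.198 CPM at day 3 (1.00% of DMSO, or 0.416% without replicate 1) and 0.392, 0.0642 and 0.253 CPM at day 6 (1.23%).

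SPTB encodes the beta chain of erythroid spectrin, the filament of the red cell membrane skeleton, and lies on chr14:64746283-64879907, minus strand. No SPTB read was counted in any of the 6 combination libraries, where DMSO had 477 reads at day 3 and 395 at day 6. With a floor of 3 reads per group, SPTB was at least 164-fold lower at day 3 and at least 117-fold lower at day 6, and by fitted value it ranked 1 among the falls of 16384 genes on both days. It had 1.16, 0 and 0.041 CPM with selumetinib, against 7.55, 9.56 and 8.07 CPM in DMSO day 3. Of those 23 reads, 22 were in replicate 1, so that 4.77% of DMSO was left with it and 0.244% without it.

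With VTP-50469 alone the mean level of SPTB was above DMSO at day 3 and below it at day 6. SPTB had 16.2, 6.47 and 17.4 CPM in VTP-50469 day 3 libraries, of which replicates 1 and 3 were above all DMSO libraries and replicate 2 below them, a level of 159% of DMSO. It had 0.988, 2.59 and 0.946 CPM at day 6, against 6.19, 9.56 and 6.80 CPM in DMSO day 6, a level of 20.1% (12.9% without replicate 2). Exons of SPTB overlap those of PLEKHG3 on the other strand, and the libraries carry no strand, so reads of the 2 genes cannot be told apart where they overlap. PLEKHG3 averaged 19.4 to 26.3 CPM in the 7 OCI-AML3 groups, including 22.3 and 19.4 CPM in the combination at day 3 and day 6, where SPTB was at 0.

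SCN4A encodes the pore subunit of the skeletal muscle sodium channel and lies on chr17:63938554-63972918, minus strand. No SCN4A read was counted in the combination at day 3, where DMSO had 435, which made it at least 150-fold lower. It had 0, 0.835 and 0 CPM in the combination at day 6, with all 13 reads in replicate 2, against 7.84, 9.67 and 9.21 CPM in DMSO day 6, or 3.13% of DMSO. The single drugs left like shares of SCN4A. It had 1.16, 0.662 and 1.49 CPM with VTP-50469 at day 6, 12.4% of DMSO, and 1.90, 0.519 and 0.451 CPM with selumetinib, against 7.01, 8.22 and 7.79 CPM in DMSO day 3, 12.5% of DMSO. All of these libraries lay below DMSO, and without selumetinib replicate 1 6.32% was left. At day 3 VTP-50469 libraries, at 8.96, 5.82 and 8.53 CPM, overlapped DMSO day 3 (log2 fold change 0.02 ± 0.50).

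SLC12A8, whose product has been described in mice as a transporter of nicotinamide mononucleotide, lies on chr3:125082636-125212864, minus strand. SLC12A8 had 0.0517, 0 and 0 CPM in the combination at day 3, against 5.93, 8.37 and 7.01 CPM in DMSO day 3. That was 1 read, in replicate 1, against 404, a 417-fold lower level with a 95% counting interval of 74.5 to 16500. At day 6 the loss was smaller. The combination had 0.915, 0 and 1.07 CPM, 8.89% of DMSO, and VTP-50469 alone had 1.51, 1.14 and 1.49 CPM, 18.5%, against 9.32, 7.20 and 5.86 CPM in DMSO day 6. Selumetinib gave 1.69, 0.462 and 0.328 CPM, 11.6% of DMSO day 3, and 5.56% without replicate 1. VTP-50469 at day 3 gave 5.41, 2.76 and 6.38 CPM, a range that overlapped DMSO day 3.

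CTXN1 encodes cortexin 1, a small membrane protein first known from rat cerebral cortex, and lies on chr19:7924485-7926166, minus strand. CTXN1 lay on opposite sides of DMSO with the 2 drugs. It had 10.2, 9.21 and 9.15 CPM in VTP-50469 day 6 libraries, all above the 4.54, 3.34 and 6.41 CPM of DMSO day 6, a level of 200% (log2 fold change 0.99 ± 0.36). It had 2.37, 1.5 and 2.58 CPM with selumetinib, all below the 3.51, 5.53 and 5.90 CPM of DMSO day 3, a level of 43.2%. In the combination at day 3 it had 0.155, 0 and 0 CPM, with 3 reads, all in replicate 1, against 282 in DMSO, a 97.1-fold lower level with a 95% counting interval of 32.9 to 474. At day 6 the combination had 0.654, 1.86 and 1.01 CPM, 24.7% of DMSO day 6 and 12.4% of VTP-50469 day 6. With VTP-50469 at day 3 it had 3.66, 6.97 and 4.75 CPM, which overlapped DMSO (103%).

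**Figure D2:**
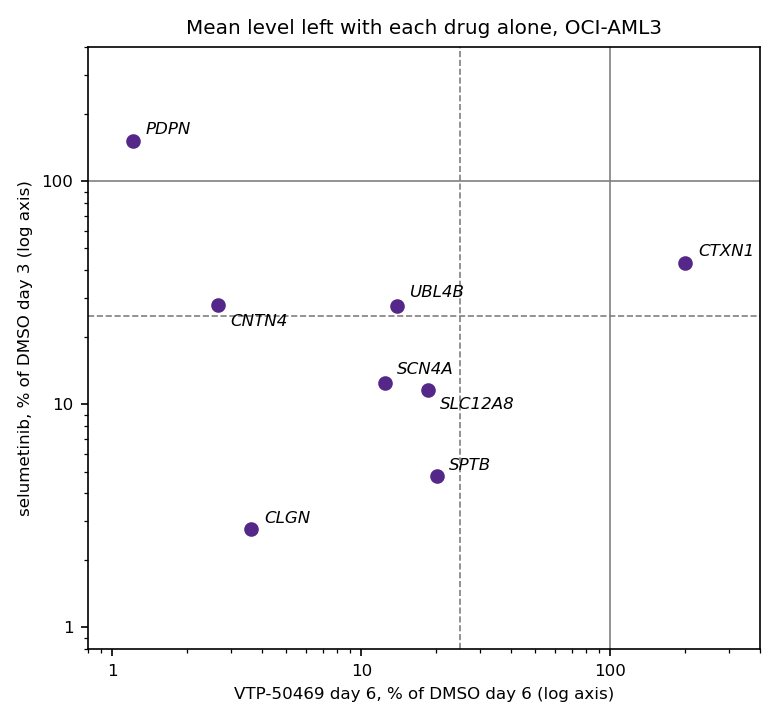
Mean level left in OCI-AML3 with VTP-50469 at day 6, as percent of DMSO day 6 (horizontal, logarithmic), and with selumetinib, as percent of DMSO day 3 (vertical, logarithmic), 1 point per gene, with dashed lines at 25% and solid lines at 100%. PDPN, at 1.21% and 152%, lies at the upper left, CTXN1, at 200% and 43.2%, at the far right, and CLGN at 3.62% and 2.75% is low on both axes.

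Set directly against the single drugs, the combination was lower for most of the 8 genes at day 3. Against VTP-50469 at day 3, 6 of 8 genes had all combination libraries below all VTP-50469 libraries (26.0% of the 16384 genes did), PDPN and CNTN4 being the exceptions. Against selumetinib this was so for 6 genes (21.6% of genes), CLGN and SPTB overlapping. SPTB had 0 reads in the combination at day 3 and 784 in VTP-50469 at day 3, at least 259-fold lower. CTXN1 had 3 reads in the combination at day 3 and 134 with selumetinib, a 43.0-fold difference with a 95% counting interval of 14.4 to 211. Against VTP-50469 at day 6, 5 genes were below in all libraries (27.2% of genes). PDPN was the 1 gene above VTP-50469 in all libraries (18.9% of genes). UBL4B was at 3.50% of the VTP-50469 day 6 level, the lowest of the genes with reads in both groups.

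Between DMSO day 6 and DMSO day 3 of OCI-AML3, edgeR called 0 of the 8 genes and 0.0% of 16384 (174 genes at an unadjusted p under 0.05, 1 gene by DESeq2). Log2 fold changes ran from -0.52 ± 0.75 in CNTN4 to 0.21 ± 0.50 in SCN4A, and the DMSO day 6 libraries lay below those of day 3 without overlap in 2 of the 8, CNTN4 and CLGN (5.6% of genes).

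**Figure D3:**
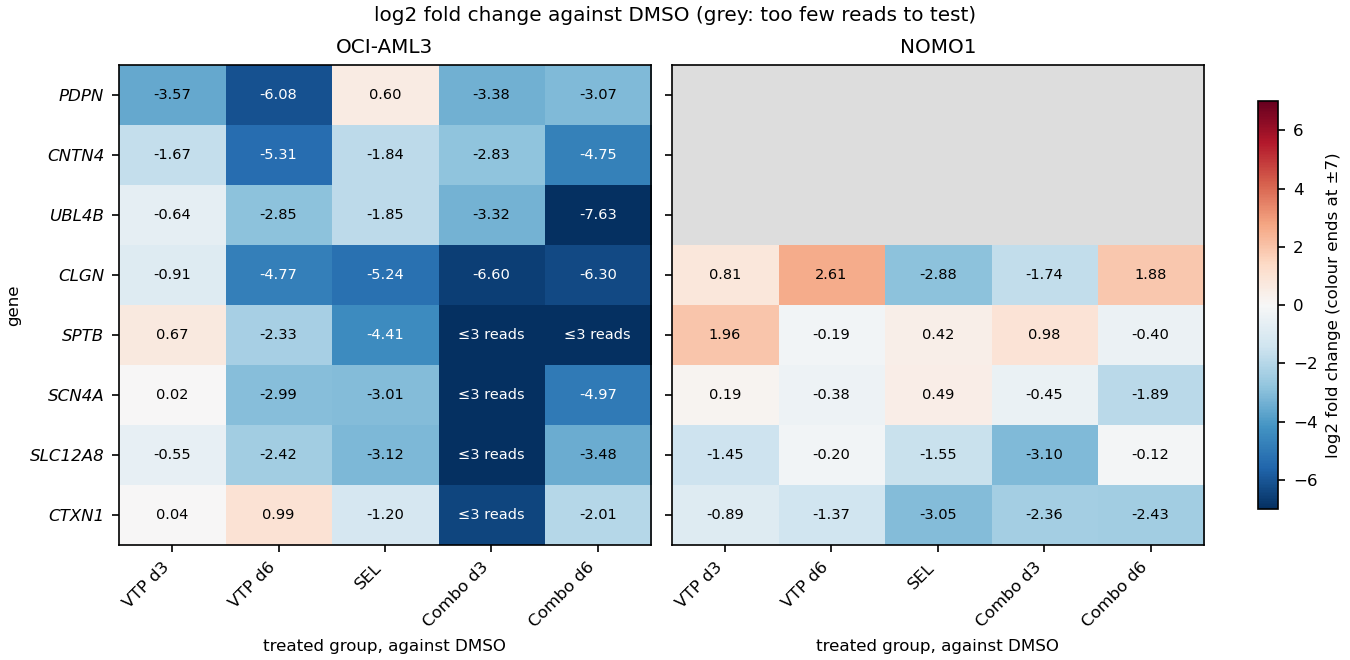
Log2 fold change of each treated group (columns) against DMSO of the same day, or day 3 for selumetinib, in OCI-AML3 (left) and NOMO1 (right), with blue for lower and red for higher than DMSO, and cells with 3 reads or fewer in the treated group marked by words. The 3 genes without a NOMO1 value are grey, and the only positive OCI-AML3 values above 0.04 are PDPN with selumetinib (0.60), CTXN1 with VTP-50469 at day 6 (0.99) and SPTB with VTP-50469 at day 3 (0.67).

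In NOMO1, whose values the selection did not use, 3 of the genes were at or near 0 in DMSO as well. PDPN had no read in any of the 21 libraries, where 3 reads per group would be 0.0378 to 0.0492 CPM. CNTN4 had 2 reads, both in selumetinib libraries, and UBL4B had 3 reads in all. These 3 genes were not tested. The other 5 passed the filter on low counts, CLGN, SCN4A, SLC12A8 and CTXN1 at group means of at most 2.33 CPM, so their values rest on few reads. By edgeR's quasi-likelihood test, those called lower were 2 of the 5 with selumetinib (25.2% of 16561 genes tested), 3 with the combination at day 3 (27.5%) and 2 at day 6 (28.2%). Those called higher were 1 with VTP-50469 at day 3 (29.7%), 1 at day 6 (23.7%) and 1 with the combination at day 6 (27.3%). With VTP-50469 the other 4 had log2 fold changes of -1.45 to 0.81 at day 3 and of -1.37 to -0.19 at day 6, at edgeR adjusted p of 0.148 to 0.853.

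**Figure D4:**
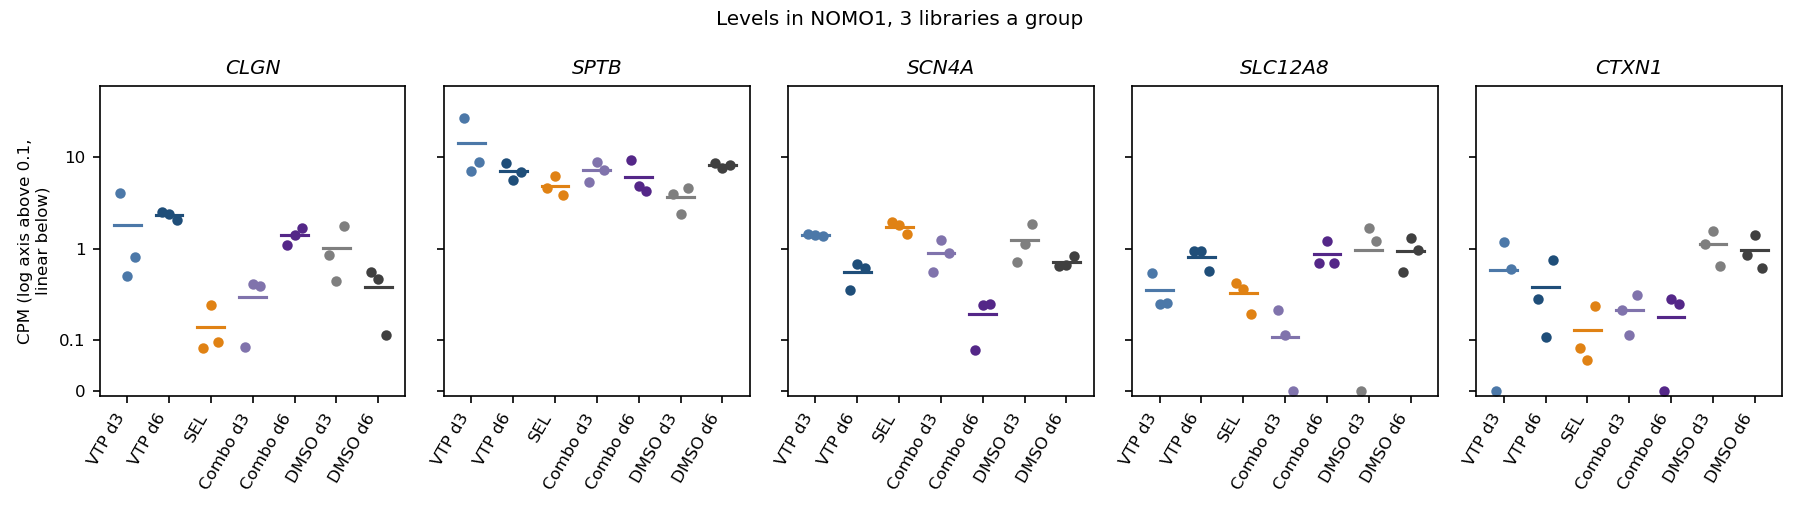
Level in CPM (vertical axis, logarithmic above 0.1 and linear below) of the 5 genes tested in NOMO1, with 1 point per library and a bar at the group mean of 3 libraries. CLGN in VTP-50469 day 6 (2.09 to 2.52 CPM) lies above DMSO day 6, and SPTB stays between 2.38 and 26.8 CPM in every library.

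CLGN rose with VTP-50469 at day 6 in NOMO1. It had 2.52, 2.39 and 2.09 CPM in VTP-50469 day 6 libraries, against 0.563, 0.463 and 0.115 CPM in DMSO day 6 libraries, a log2 fold change of 2.61 ± 0.67 (edgeR adjusted p = 0.00206). This call was made under every alternative run, at adjusted p from 1.9e-05 to 0.0199. CLGN fell with selumetinib, at 0.0843, 0.242 and 0.0961 CPM against 0.856, 0.446 and 1.77 CPM in DMSO day 3, a log2 fold change of -2.88 ± 0.82 (edgeR adjusted p = 0.00414). Against DMSO day 6 that value was -1.47 and was not called (edgeR adjusted p = 0.214). In the combination it was lower at day 3, at 0.0861, 0.418 and 0.391 CPM (-1.74 ± 0.71, edgeR adjusted p = 0.0379), and higher at day 6, at 1.11, 1.43 and 1.70 CPM (1.88 ± 0.68, edgeR adjusted p = 0.0204). The day 3 call was lost without DMSO day 3 replicate 3 (-1.09, adjusted p = 0.24) or replicate 1 (-1.84, 0.0505), without combination replicate 1 (-1.31, 0.154) or replicate 3 (-1.95, 0.056), and against DMSO day 6 (-0.32, 0.757), all by edgeR. It was also lost with the replicate number as a block (-1.69, edgeR adjusted p = 0.0545) and with only the compared groups fitted (-1.78, 0.0659). Against VTP-50469 at day 3, with 4.09, 0.505 and 0.813 CPM, CLGN was lower in the combination by -2.54 ± 0.70 (edgeR adjusted p = 0.00508, with 19.2% of genes called lower), a call lost without VTP-50469 replicate 1 (-1.11, edgeR adjusted p = 0.224) and with only the compared groups fitted (0.0656). The day 6 call against DMSO was lost by edgeR without DMSO day 6 replicate 3 (1.44, adjusted p = 0.11) or combination replicate 3 (1.72, 0.0588).

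SPTB rose with VTP-50469 at day 3 in NOMO1. It had 26.8, 7.07 and 8.98 CPM, against 3.92, 2.38 and 4.67 CPM in DMSO day 3, a log2 fold change of 1.96 ± 0.44 (edgeR adjusted p = 0.00112). Replicate 1 was the highest, and without it the value was 1.14 (edgeR adjusted p = 0.00127). Against DMSO day 6, at 8.66, 7.64 and 8.14 CPM, the value was 0.80 and was not called (edgeR adjusted p = 0.165). DMSO day 6 was itself higher than DMSO day 3 by 1.16 ± 0.44 (edgeR adjusted p = 0.0366, a comparison in which 28.8% of genes were called higher). That call was lost without DMSO day 3 replicate 1 (1.24, edgeR adjusted p = 0.0736) or 2 (0.95, 0.132) and without any 1 of the DMSO day 6 replicates (1.15 to 1.23, 0.0575 to 0.0759), and also without a filter on low counts (1.22, 0.0756). In the combination SPTB had 5.38, 8.88 and 7.31 CPM at day 3, all above DMSO day 3, but was not called (0.98 ± 0.44, edgeR adjusted p = 0.0666; 0.0359 with the replicate number as a block and 0.00909 with only the compared groups). PLEKHG3, which overlaps it, had 41061 reads over the 21 NOMO1 libraries.

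CTXN1 was lower than DMSO in NOMO1 with selumetinib and with the combination. It had 0.0843, 0.0606 and 0.240 CPM with selumetinib and 0.215, 0.114 and 0.313 CPM in the combination at day 3, against 1.13, 1.58 and 0.644 CPM in DMSO day 3. The log2 fold changes were -3.05 ± 1.00 (edgeR adjusted p = 0.0115) and -2.36 ± 0.92 (edgeR adjusted p = 0.0298). At day 6 the combination had 0, 0.286 and 0.25 CPM, against 0.866, 1.42 and 0.614 CPM in DMSO day 6, a change of -2.43 ± 0.95 (edgeR adjusted p = 0.0314). The groups did not overlap in these 3 comparisons. Single libraries nevertheless decided the calls by edgeR. The selumetinib call was lost without selumetinib replicate 1 (-2.78, adjusted p = 0.058) or 2 (-2.75, 0.0547). The day 3 combination call was lost without DMSO replicate 2 (-2.02, 0.094), combination replicate 1 (-2.36, 0.0799) or 2 (-2.07, 0.114), and against DMSO day 6 (-2.16, 0.0565). The day 6 combination call was lost without DMSO replicate 1 (-2.51, edgeR adjusted p = 0.0522) or 2 (-2.05, 0.121) and without combination replicate 1 (-1.83, 0.13) or 3 (-2.72, 0.0521). With VTP-50469 at day 6 CTXN1 had 0.283, 0.109 and 0.758 CPM in NOMO1, which overlapped DMSO day 6 (-1.37 ± 0.87, edgeR adjusted p = 0.206).

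SCN4A fell in NOMO1 with the combination at day 6. It had 0.082, 0.245 and 0.25 CPM, against 0.650, 0.662 and 0.845 CPM in DMSO day 6, a log2 fold change of -1.89 ± 0.55 (edgeR adjusted p = 0.00486, and 0.00239 to 0.0328 over the alternatives). VTP-50469 alone at day 6 had 0.354, 0.689 and 0.616 CPM, so the combination was lower than VTP-50469 too, by -1.51 ± 0.56 (edgeR adjusted p = 0.0464, with 15.2% of genes called lower). Without a filter on low counts that call was lost (-1.52, edgeR adjusted p = 0.149), and also without VTP-50469 replicate 2 (-1.31, 0.143) or 3 (-1.42, 0.105) or combination replicate 1 (-1.14, 0.188), 2 (-1.74, 0.0609) or 3 (-1.72, 0.0558).

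SLC12A8 was lower in NOMO1 with the combination at day 3, at 0.215, 0.114 and 0 CPM, against 0, 1.68 and 1.23 CPM in DMSO day 3. The log2 fold change was -3.10 ± 0.94 (edgeR adjusted p = 0.00604, and 0.000111 to 0.0449 over the alternatives), although DMSO replicate 1, at 0, lay inside the treated range. Without that DMSO library, VTP-50469 at day 3 (-2.04, edgeR adjusted p = 0.0118) and selumetinib (-2.13, 0.0093) were called too, while with it they were at -1.45 ± 0.84 and -1.55 ± 0.85. At day 6 the combination had 0.697, 1.23 and 0.700 CPM, against 0.563, 1.32 and 0.960 CPM in DMSO day 6, and the groups overlapped.

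The 2 nearest protein-coding genes on each side of every member, 32 in all, gave a view of the surrounding chromosome in OCI-AML3. Of these, 20 passed the filter. Those called lower were 5 with VTP-50469 at day 6, 5 with selumetinib, 10 with the combination at day 3 and 9 at day 6, where 16.0%, 15.6%, 25.8% and 26.5% of the 16384 genes tested by edgeR were called lower. Those called higher were 2 with VTP-50469 at day 6, 1 with selumetinib and 2 with the combination at day 3, where 18.8%, 11.7% and 22.3% of all genes were called higher. Over VTP-50469 at day 3 and day 6, selumetinib, and the combination at day 3 and day 6, median log2 fold changes of the neighbours were -0.01, -0.24, -0.24, -0.34 and -0.20, where those of the 8 members were -0.59, -2.92, -2.43, -6.51 and -4.86, and those of all genes lay between 0.00 and 0.03. TIMM44, 0.6 kb from CTXN1 and a part of the mitochondrial import motor, fell with selumetinib to 50.4 CPM, against 90.2 CPM in DMSO day 3 (-0.84 ± 0.13), and with VTP-50469 at day 6 to 65.2 CPM, against 92.1 CPM in DMSO day 6 (-0.50 ± 0.13), where CTXN1 was higher. HEG1, an endothelial membrane protein gene 26.7 kb from SLC12A8, fell with selumetinib to 18 CPM, against 46.4 CPM in DMSO day 3 (-1.37 ± 0.16), and was not called with VTP-50469 at day 6 (0.18 ± 0.15). SCOC, 2.7 kb from CLGN, was called in none of the 5 comparisons and stayed between 36.3 and 49.3 CPM. Of the CNTN4 neighbours CHL1, CNTN6 and IL5RA were at most at 0.131 CPM in any group, so only TRNT1 could be tested there.

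**Figure D5:**
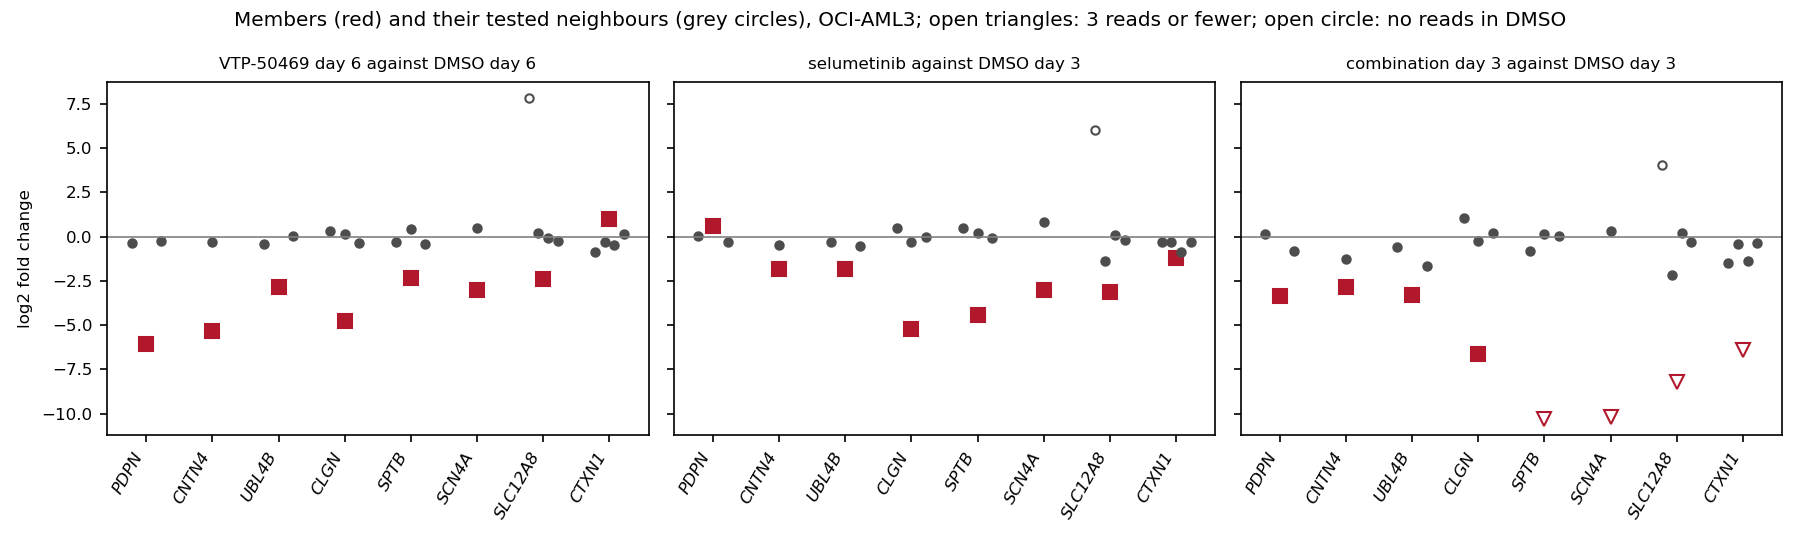
Log2 fold change against DMSO (vertical axis) of the 8 members (red) and of their tested neighbours (grey) in OCI-AML3, in panels for VTP-50469 at day 6, selumetinib and the combination at day 3. Open triangles mark members with 3 reads or fewer in the treated group, whose fitted value is not a measured fold, and the open circle is MUC13, listed at 0 CPM in DMSO. Most neighbours lie between -1 and 1, and the lowest of them, HEG1 in the combination at day 3, was at -2.17.

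Genes related to the members, as partners or as relatives of the same family or process, were called in both directions in OCI-AML3. All calls on these genes are edgeR's at an adjusted p threshold of 0.05, and the median log2 fold change of all genes was 0.01 with VTP-50469 at day 6, 0.02 with selumetinib, 0.03 with the combination at day 3 and 0.00 at day 6. The shares of all genes called lower and higher in these comparisons are those given for the neighbours, and 23.1% were called higher with the combination at day 6. Of 9 partners of podoplanin, 7 were tested. With VTP-50469 at day 6, 4 fell and 2 rose, with a median of -0.21. MSN, which encodes moesin, one of the proteins that link podoplanin to actin, fell by 0.67 ± 0.06 on the log2 scale, and EZR (ezrin) fell by 0.34 ± 0.06, while CD9 rose by 2.69 ± 0.65 and LGALS8 by 0.77 ± 0.09. Of 9 genes of the calnexin family and glycoprotein folding, 7 were tested, of which 4 fell and 2 rose with VTP-50469 at day 6 (median -0.31) and 5 fell with the combination at day 6 (median -0.51). UGGT2, a glucosyltransferase that marks misfolded glycoproteins, fell to 10.3 CPM in the combination at day 6, against 32 CPM in DMSO day 6, while calreticulin (CALR) was at 782 CPM with VTP-50469 at day 6, against 378 CPM in DMSO day 6 (1.05 ± 0.07). Of 14 contactins and partners, 5 were tested. With VTP-50469 at day 6 3 of them rose (median 1.96), among them CNTNAP1, a contactin-associated protein gene, by 1.96 ± 0.30.

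Of 18 genes of the spectrin skeleton, 13 were tested, and with VTP-50469 at day 6 4 fell and 4 rose (median 0.56). ANK2, an ankyrin gene that ties spectrin to membrane proteins, fell to 1.30 CPM in the combination at day 3, against 9.48 CPM in DMSO day 3 (-2.86 ± 0.27). The spectrin genes expressed outside red cells went separate ways in that comparison: SPTBN1 fell by 0.81 ± 0.11, and SPTAN1 rose by 0.26 ± 0.09. Of 7 genes of the UBL4 and BAG6 complex, all tested, 2 fell and 1 rose with VTP-50469 at day 6 (median -0.04), and 5 fell with the combination at day 3 (median -0.53). UBL4A, the ubiquitous relative of UBL4B, was at 42.5 CPM in the combination at day 3, against 88.4 CPM in DMSO day 3 (-1.06 ± 0.09). Of 13 other voltage-gated sodium channel genes 2 were tested. SCN8A was at most at 0.548 CPM in any group, and it had no read in the combination at day 6, against 0.167 CPM in DMSO day 6, a fall that was called. Of 14 SLC12 and NAD synthesis genes 13 were tested, with 1 higher with VTP-50469 at day 6 (median -0.03), and 2 lower and 5 higher with selumetinib (median 0.33). NAMPT, the enzyme that makes nicotinamide mononucleotide, fell with selumetinib to 63.8 CPM, against 111 CPM in DMSO day 3 (-0.80 ± 0.08). The cortexin relatives CTXN2 and CTXN3 did not pass the filter.

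Markers of red cells and germ cells were near 0 in OCI-AML3, as were those of skeletal muscle apart from TTN. Of the lymphatic endothelial and stromal markers, PECAM1 alone exceeded 1 CPM in either DMSO group. Of 10 erythroid markers 8 to 10 were at 0 in each group, including HBB in all libraries, and their summed level was at most 0.505 CPM in any library. In NOMO1, where SPTB had reads in every library, 5 to 8 of the 10 were at 0, and GATA1 alone exceeded 1 CPM, at group means of 4.43 to 21.3 CPM. Of 6 skeletal muscle markers MYOD1 and MYOG had no read in OCI-AML3, and TTN alone exceeded 1 CPM, at group means of 4.75 to 11.6 CPM. TTN was highest in the combination at day 3, where SCN4A had no read. In NOMO1, where SCN4A was at most at 1.98 CPM, desmin (DES) was at 72.2 to 150 CPM and CKM at 7.05 to 17.9 CPM. Of 5 neuron markers the highest, SYP, was at most at 1.95 CPM in OCI-AML3. No germ cell marker of 5 reached 1 CPM, and PRM1 and TNP1 had no read. The 8 lymphatic endothelial and stromal markers summed to 119 to 144 CPM with VTP-50469 at day 6 and to 138 to 154 CPM in the combination at day 6, against 15.5 to 16.1 CPM in DMSO day 6. Their sum was thus higher in both of these groups, where PDPN was low, and it was also higher with selumetinib, where PDPN was high. The 8 markers summed to 25.8 to 29.5 CPM with selumetinib, against 12.2 to 15.1 CPM in DMSO day 3, and 0 to 4 of the 8 were at 0 in a group. The sum mostly reflects few genes. PECAM1 was highest in every group, at group means of 11.9 to 136 CPM, and COL1A2 ran from 0.329 to 55.7 CPM. The highest group means of the others were 3.79 CPM in COL1A1, 2.8 in PROX1, 0.878 in PDGFRB, 0.61 in CDH5, 0.187 in VWF and 0.084 in LYVE1. In NOMO1, where PDPN had no read, PECAM1 was at group means of 192 to 510 CPM. The part of these markers in the PDPN values was not tested.

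Over the 21 OCI-AML3 libraries, the levels of the 8 genes on the log2(CPM + 0.5) scale were most alike in SPTB and SCN4A (Pearson r = 0.951), SPTB and SLC12A8 (0.925) and CLGN and SLC12A8 (0.923), and least alike in PDPN and CTXN1 (0.061). PDPN and CNTN4 had r = 0.759. These r describe libraries that share 7 groups, so they mostly follow the group means. Among 13217 genes with at least 1 CPM in some group, those with the highest r were BTAF1 (0.959), DIPK1C and PHF10 (both 0.948) for PDPN, and ITPR1 (0.946), COX19 (0.944) and GPR35 (0.942) for CNTN4. They were ASS1 (0.983), RAB33A (0.977) and SLC7A11 (0.975) for UBL4B, and GTPBP2 (0.982), TCEA1 (0.980) and CAMTA2 (0.979) for CLGN. For SPTB they were VEGFA (0.988), SLC38A2 (0.976) and KIF21B (0.974), and for SCN4A TMEM267 (0.978), C4orf46 (0.976) and TUBE1 (0.975). For SLC12A8 they were SLC31A1 (0.971), KLHL29 and CXCL8 (both 0.966), and for CTXN1 RANBP1 (0.962), PIGW and ACAD8 (both 0.956).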

How the data were processed

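RNA of 42 libraries was sequenced as unstranded paired-end reads from polyadenylated RNA, per the labels' protocols. The authors deposited raw read counts per gene; per the submitters' processing notes, the build was hg38 and the tools were FastQC 0.11.9, MultiQC 1.14, STAR 2.11a, Subread 2.0.6 for featureCounts, and DESeq2 1.44.0. Reads from near-identical or overlapping genes cannot be assigned to 1 gene with certainty under such counting. Of 58870 rows, 1 with an empty cell and 1 naming no gene (0.0% of counts) were left out. The 3 columns of values that repeat the OCI-AML3 selumetinib counts under day 6 names were not used. Each line was fitted separately over its 21 libraries with edgeR 4.0.16 (R 4.3.3): genes with low counts removed by filterByExpr, TMM scaling, 7 group means, quasi-likelihood test, Benjamini-Hochberg adjustment over all genes tested, threshold 0.05. The procedure was run on simulated counts in which few genes changed, in 1 group, with the same spread per gene in every group. That run cannot show how the fit behaves where many genes change or the groups differ in spread, as here. The SE of a log2 fold change was derived as its absolute value over the square root of the quasi-likelihood F, so it is approximate. CPM used TMM-scaled totals. A group without reads was given a floor of 3 reads over the group, and groups with 1 to 3 reads a ratio with an exact binomial 95% interval. The genes described are the 8 members, the 2 nearest protein-coding genes on each side, fixed lists of related genes and markers, and the 3 genes with the highest r per member. Named genes of those lists beyond the members were picked for this text after their values were seen. The members and lists were chosen with earlier results of these data known. Positions are from GENCODE 29, while the table names GENCODE 30. Alternatives were DESeq2 1.42.0, RLE scaling, no filter, a replicate block, only the compared groups, DMSO day 6 as control and leaving out each library.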

Additional observations from a re-analysis of the deposited data

Results flagged for a closer look

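CLGN and SPTB lay on opposite sides of DMSO under the same treatment in different lines or at different times, with every library on its own side. None of these differences was itself tested. Every member was screened over many pairs of comparisons, and the share of all genes with such opposite sides was not computed. Whether these 2 genes are unusual in this is therefore not known. CLGN with VTP-50469 at day 6 had a log2 fold change of 2.61 in NOMO1 and of -4.77 in OCI-AML3, and with the combination at day 6 it had 1.88 in NOMO1 and -6.30 in OCI-AML3. Within NOMO1, CLGN with the combination was at 1.88 at day 6 and at -1.74 at day 3. The day 3 value was only -0.32 against DMSO day 6 and was not called (edgeR adjusted p = 0.757). The calls of both days were lost in some of the alternatives given above. SPTB with the combination at day 3 was at 0.98 in NOMO1, where all 3 libraries lay above DMSO day 3 but the change was not called (edgeR adjusted p = 0.0666) and was -0.18 against DMSO day 6, while in OCI-AML3 it had no read (fitted value -10.29, which depends on the prior count and is not a measured fold).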

How the results depend on the processing

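Of 1312 recomputed fold changes of the 8 genes, 72 changed their call (54 lost, 18 gained) and none of the called ones changed sign. These counts include treated OCI-AML3 cells, whose calls are not reported. Of 112 group levels, 2 moved by over 1 SD without TMM scaling: PDPN in OCI-AML3 DMSO day 3 (10.1 CPM) and SCN4A in NOMO1 VTP-50469 day 3 (1.48 CPM). With VTP-50469 at day 3 the menin class held 1 gene in place of 7. Leaving out VTP-50469 day 3 replicate 2 or selumetinib replicate 1 was chosen after seeing the data.

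Genes called over the whole table varied as follows when each library was left out. In OCI-AML3, VTP-50469 day 3 gave 1788 calls (964 to 1867, with 964 without VTP-50469 replicate 2, 1139 without DMSO replicate 1 and 1186 without replicate 3), day 6 5689 (4691 to 5104), selumetinib 4482 (3341 to 4271), the combination 7876 at day 3 (6912 to 7487) and 8123 at day 6 (7206 to 8141), the combination against VTP-50469 6907 at day 3 (6010 to 6752) and 6767 at day 6 (5974 to 6802), and against selumetinib 4456 (3357 to 4059). DMSO day 6 against day 3 gave 0, with 0 to 1 leaving out a library, 1 without a filter and 1 with DESeq2. In NOMO1, VTP-50469 day 3 gave 8680 (8141 to 8617), day 6 8086 (7261 to 7492), selumetinib 8957 (8158 to 8745), the combination 9719 (8993 to 9563) at day 3 and 9175 (8424 to 8601) at day 6, against VTP-50469 5823 (4904 to 6284) and 4573 (3623 to 3888), against selumetinib 3326 (2374 to 2680), and DMSO day 6 against day 3 8447 (7555 to 8210). With DMSO day 6 as control, NOMO1 gave 4499 for VTP-50469 day 3 and 5328 for selumetinib, and with only the compared groups it gave 5703 for the combination against selumetinib. The causes were not tested.

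The labels share replicate numbers. Over 63 pairs a line the same-number correlations were -0.065 to 0.045 (OCI-AML3) and -0.057 to 0.04 (NOMO1), so no strong pattern shared by number was seen. These correlations cannot tell whether same-number libraries shared a culture or a batch. With the replicate block, 5601 genes were called for OCI-AML3 VTP-50469 day 6 and 7983 for NOMO1, and every other count with the block was within 1.5 times the count without it.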
